A study of Mus musculus with 54 samples.

Results

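The comparison set cerebellar tumours of Ptc het mice that had received 1 Gy of radiation against tumours of Ptc het mice that had received sham treatment, each collected 5 h later. Its members were the samples whose titles name Ptc and 1 of the 2 treatments, which gave 6 of the 54 samples of the series, 3 after 1 Gy and 3 after sham. In Ptc het mice, 1 of the copies of Ptch1, the receptor that holds hedgehog signalling in check, is inactive, and the controls carry the same allele. The labels give the strain as C57BL/6 and the tissue as brain tumour, and do not state age or the deleted part of Ptch1. The titles number the libraries of each group as biological replicates, but no label states that each came from a separate animal, so the p-values measure the spread between these libraries. Because the lesion is not described, the counts of Ptch1 do not check the genotype. SmoA1 tumours, which carry an activated Smoothened gene, and normal BL6 cerebellum of C57BL/6 mice, both given 1 Gy or sham and collected 5 h later, served for 2 tests of whether the response differed, with 3 libraries a group.

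In hedgehog-driven medulloblastoma, cells resembling the granule neuron progenitors of the developing cerebellum keep dividing. Ionising radiation breaks DNA, and p53, stabilised by the damage kinases, then switches on genes that stop the cell cycle (Cdkn1a), feed back on p53 (Mdm2) or promote death through mitochondria (Bax, Bbc3, Pmaip1). Immediate early genes such as Fos are a separate class that is transcribed from preformed factors within minutes of calcium, growth factor or stress signals, many of them through the cAMP response element (CRE) bound by CREB.

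Promoter sequences of 5 genes whose libraries separated the groups are shown because these genes represent both classes. They are RefSeq sequences on GRCm38.p6, read 5′ to 3′ on the gene's strand, and run from 250 to 11 bases before the annotated transcript start. In the first 4, capitals mark each CRE core, TGACG or its reverse complement CGTCA. In Cdkn1a, capitals mark both 10-base elements of a match to the p53 consensus, with 12 bases between them. The 10 bases directly after the downstream element differ from the consensus only at their first base and are not marked.
Fos (chr12:85473640-85473879, plus strand): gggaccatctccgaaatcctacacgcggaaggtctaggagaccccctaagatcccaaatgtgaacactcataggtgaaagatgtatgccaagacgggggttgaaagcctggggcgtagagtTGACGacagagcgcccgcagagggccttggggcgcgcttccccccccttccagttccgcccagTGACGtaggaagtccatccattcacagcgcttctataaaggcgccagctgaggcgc
Fosb (chr7:19310056-19310295, minus strand): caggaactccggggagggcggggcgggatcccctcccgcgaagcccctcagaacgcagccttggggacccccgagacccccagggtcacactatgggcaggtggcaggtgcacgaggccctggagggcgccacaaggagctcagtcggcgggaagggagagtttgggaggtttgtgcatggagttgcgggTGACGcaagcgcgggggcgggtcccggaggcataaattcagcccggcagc
Nr4a1 (chr15:101266596-101266835, plus strand): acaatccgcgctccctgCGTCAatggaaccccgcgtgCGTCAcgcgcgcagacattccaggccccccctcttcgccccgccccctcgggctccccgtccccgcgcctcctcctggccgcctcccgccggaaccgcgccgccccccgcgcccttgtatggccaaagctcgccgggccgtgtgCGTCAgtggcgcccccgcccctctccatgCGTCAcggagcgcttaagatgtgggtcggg
Nr4a2 (chr2:57124014-57124253, minus strand): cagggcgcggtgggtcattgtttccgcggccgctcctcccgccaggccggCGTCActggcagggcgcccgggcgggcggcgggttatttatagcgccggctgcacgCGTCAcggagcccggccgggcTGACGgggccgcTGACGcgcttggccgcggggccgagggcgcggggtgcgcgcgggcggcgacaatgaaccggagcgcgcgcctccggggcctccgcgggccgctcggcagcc
Cdkn1a (chr17:29090729-29090968, plus strand): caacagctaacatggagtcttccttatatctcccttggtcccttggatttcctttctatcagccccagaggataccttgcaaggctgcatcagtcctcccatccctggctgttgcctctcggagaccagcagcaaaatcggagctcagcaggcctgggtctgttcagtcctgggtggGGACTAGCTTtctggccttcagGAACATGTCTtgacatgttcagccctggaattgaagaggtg

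The CRE core begins 66 and 129 bases before the start of Fos and 60 bases before that of Fosb. Nr4a1 and Nr4a2 each hold 4, between 40 and 233 bases and between 111 and 200 bases before the start. On either strand of the 250 bases before the start, TGACG was found for 5347 of 27025 genes with an entry (19.8%). It was found for 15 of the 23 immediate early genes with an entry, and for 9 of the 10 whose libraries after 1 Gy all exceeded all sham libraries. Zfp36 was the exception. Among the 32 p53 targets with an entry TGACG was found for 10. TGACG also lies within the longer TGACGTCA, which was found for 2 of the 23 genes and 1.77% of all genes. The p53 consensus, with up to 13 bases allowed between its elements, was found for 18 of the 27025 genes, and among the p53 targets for Cdkn1a only, at the upstream of its 2 listed starts. The NF-kB consensus was found for 14 of the 26 inflammatory genes and for 7 of the 23 immediate early genes, against 8.23% of all genes. The serum response element was found for 3 of the 23 immediate early genes and 1.62% of all genes. The AP-1 site TGACTCA was found for 0 of the 23 immediate early genes and 7 of the 26 inflammatory genes, against 5.16% of all genes. These matches describe the letters in the window and do not show binding, and sites farther upstream were not searched.

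The 6 libraries were deep and alike in kind, with 35137546 to 52556884 counts in genes on the reverse strand, which held 94.4% to 95.0% of the counts of both strands. Levels are given as CPM, which are counts scaled to library depth, here with edgeR's TMM factors. The libraries differed in cell content. Along the first principal component, which took 44.4% of the variance, sham replicate 2 lay at 149 and the others between -67.6 and 23.8, and along the second, with 30.8%, 1 Gy replicate 2 lay at 115 and the others between -63.1 and 31.4. The summed level of the 16 Purkinje neuron markers was 12286 CPM in sham replicate 2 and 3018 in sham replicate 3, against 501 to 1056 in the other 4 libraries. The 16 mature granule neuron markers summed to 13497 CPM in sham replicate 2, 7787 in 1 Gy replicate 1 and 4832 in sham replicate 3, and to 1050 to 2402 in the others. In 1 Gy replicate 2 the 15 endothelial markers summed to 1774 CPM, against 144 to 520 elsewhere. The astrocyte gene Gfap stood at 1304 CPM there, against 114 to 413 elsewhere. The astrocyte list as a whole did not single out that library. Its 16 markers summed to 13711 CPM there and to 10728 CPM in sham replicate 2, against 1896 to 5546 in the others. The tumour markers Atoh1 and Neurod1, transcription factors of granule neuron progenitors, were detected in every library, at 13.6 to 361 and 84.7 to 984 CPM. Both were lowest in 1 Gy replicate 2. Y-linked genes were present in 1 Gy replicate 1 alone, with Ddx3y at 102 CPM there and at 0 in the other 5, and Xist stood at 0.314 CPM there and between 97.0 and 1668 in the others. No marker of the lists was at 0 in all 6 libraries. In bulk RNA, fewer cells of a type and less RNA per cell cannot be told apart.

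**Figure D1:**
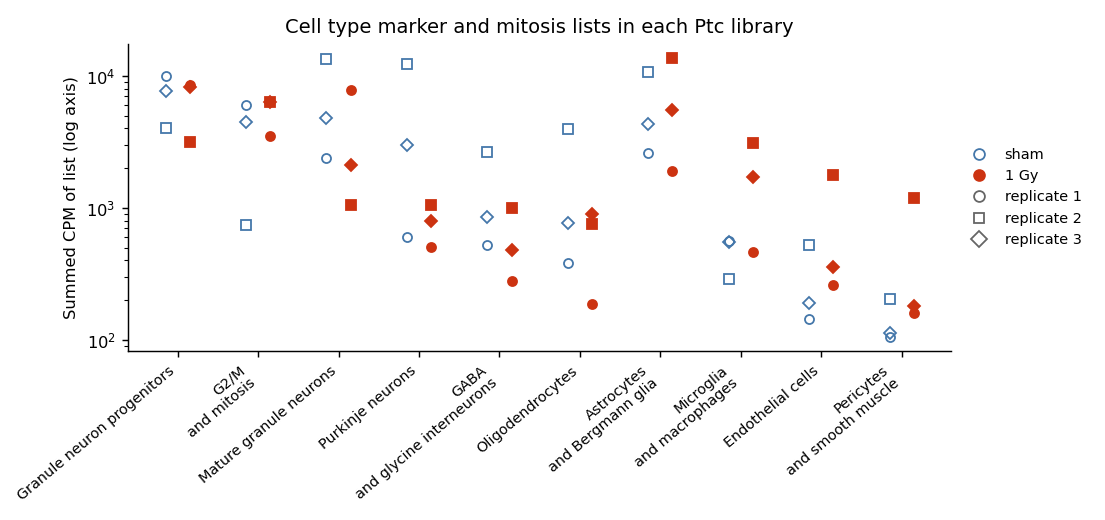
Summed CPM (log axis) of 9 cell type marker lists and of the mitosis list in each Ptc library; open blue symbols are sham, filled red symbols 1 Gy, and shapes give the replicate number. Sham replicate 2 (open square) is the highest library for Purkinje markers at 12286 CPM, and 1 Gy replicate 2 (filled square) the highest for endothelial markers at 1774 CPM.

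With this spread, the edgeR quasi-likelihood test called 0 of 18776 genes (0%) at an adjusted p under 0.05. The smallest adjusted p was 0.487. At an unadjusted p under 0.05 there were 804 higher genes (4.28%) and 530 lower (2.82%). The DESeq2 Wald test called 310 genes (1.65%), of which 211 were higher (1.12%) and 99 lower (0.527%), and limma's voom with sample quality weights called 14 higher (0.0746%) and 0 lower. All 14 were also called by DESeq2, and in all 14 every 1 Gy library lay above every sham library. In all, 1339 genes (7.13%) were higher with no overlap between the groups and 1121 (5.97%) were lower with no overlap. For 3 libraries against 3, the exact permutation test of a single gene cannot go below a p of 0.1. Counts were also simulated independently for each gene with its fitted spread. On them edgeR recovered 9 of 100 genes changed 4-fold and 67 of 100 changed 16-fold, with 4 false calls. Voom recovered 9 and 69 with 6 false calls. DESeq2 recovered 60 and 90 with 85 false calls. No simulated library stood apart in cell content, as sham replicate 2 and 1 Gy replicate 2 did. These false calls therefore cannot rank the tests on the 6 libraries, and DESeq2 calls are named here only beside the levels. Genes are therefore given as levels per library with fitted differences. Fold changes, standard errors and unadjusted p come from edgeR, and the adjusted p of a gene from voom or DESeq2 is named as such.

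The p53 target that voom called was Cdkn1a, which encodes the p21 inhibitor of cyclin-dependent kinases (ENSMUSG00000023067, chr17:29090976-29100727 on GRCm38, plus strand). Its level was 417, 410 and 259 CPM in 1 Gy replicates 1, 2 and 3, and 66.1, 63.0 and 54.4 CPM in sham replicates 1, 2 and 3. The lowest 1 Gy library thus lay well above the highest sham library, and the sham libraries lay close together. The means were 362 ± 89.1 and 61.1 ± 6.08 CPM (SD, n = 3 each), with a log2 fold change of 2.57 ± 0.28 SE, 5.92-fold, and an adjusted p of 0.0353 by voom with sample weights. Without both libraries numbered 2 the log2 fold change was 2.49.

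Of 42 p53 target genes tested, 37 had a positive log2 fold change and 22 were higher in all 1 Gy libraries than in all sham libraries, while 0 were lower with no overlap. Over all genes tested these shares were 7.13% higher and 5.97% lower. The median log2 fold change was 1.18, against -0.0014 over all genes tested, and 0.66 without both libraries numbered 2. Voom called 1 member higher and DESeq2 8, against 0.0746% and 1.12% of all genes. In 20 of the 22 non-overlapping genes 1 Gy replicate 2 was the highest library, and in 18 of them 1 Gy replicate 1 was the lowest of the irradiated libraries. Over all 1339 genes higher with no overlap, these counts were 820 and 714.

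Among the targets that promote death, the death receptor gene Tnfrsf10b stood at 4.73, 17.1 and 10.1 CPM after 1 Gy and at 1.55, 1.32 and 1.2 in sham. The groups did not overlap, and the log2 fold change was 2.97 ± 0.57 (DESeq2 adjusted p = 5.03e-05). Pmaip1, which encodes the BH3-only protein Noxa, was at 35.6, 122 and 35.1 CPM against 10.5, 3.25 and 8.62. Its log2 fold change of 3.11 ± 0.70 became 1.89 without both libraries numbered 2, since 1 Gy replicate 2 was the highest and sham replicate 2 the lowest library. Bax, the pore-forming member of the family, was at 48.3, 94.8 and 79.8 CPM against 38.1, 22.5 and 35.6 (log2 fold change 1.21 ± 0.34), and Bbc3, which encodes Puma, at 45.2, 62.9 and 73.8 CPM against 40.9, 19.2 and 35.3 (0.93 ± 0.35). In both, 1 Gy replicate 1 was the irradiated library closest to sham. Of 27 BCL2 family and caspase genes tested, 10 were higher with no overlap and 0 lower, against 7.13% and 5.97% of all genes. Their median log2 fold change of 0.59 was 0.21 without sham replicate 2 and 0.15 without both libraries numbered 2. Cycs, which encodes cytochrome c, was at 103, 106 and 77.0 CPM against 51.5, 69.4 and 57.0, and its log2 fold change was 0.69 with all 6 libraries and 0.73 without both numbered 2. The survival genes Bcl2 and Mcl1 overlapped between the groups, with log2 fold changes of 0.36 and 0.41.

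Other p53 targets act on growth and repair. Phlda3, an inhibitor of Akt signalling, was at 29.5, 88.0 and 52.9 CPM after 1 Gy and at 17.9, 12.5 and 14.1 in sham (log2 fold change 1.94 ± 0.43, DESeq2 adjusted p = 0.0114). Ccng1, cyclin G1, was at 104, 334 and 156 CPM against 52.3, 74.6 and 49.7 (1.75 ± 0.47). Aen, an apoptosis-enhancing nuclease, was at 56.1, 108 and 87.6 CPM against 38.2, 24.8 and 29.0 (1.45 ± 0.31, DESeq2 adjusted p = 0.0163). In each of these genes the irradiated libraries were all higher, and 1 Gy replicate 1 was the closest to sham. Mdm2, the ubiquitin ligase that removes p53, was at 85.0, 113 and 110 CPM against 90.1, 74.0 and 88.0, so the groups overlapped, with a log2 fold change of 0.29 ± 0.21. Eda2r also overlapped, at 54.0, 99.5 and 82.1 CPM against 62.2, 5.69 and 45.6. The repair genes Xpc, Ddb2 and Rrm2b had log2 fold changes of 0.12, -0.59 and -0.06. Targets of p53 thus ranged from a separation of the groups to none. In the family of cell cycle inhibitors to which Cdkn1a belongs, Cdkn2b, which encodes p15, was at 12.2, 13.3 and 11.6 CPM against 5.47, 0.806 and 2.21, while Cdkn1b, which encodes p27, was at 346, 267 and 355 against 415, 195 and 346.

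**Figure D2:**
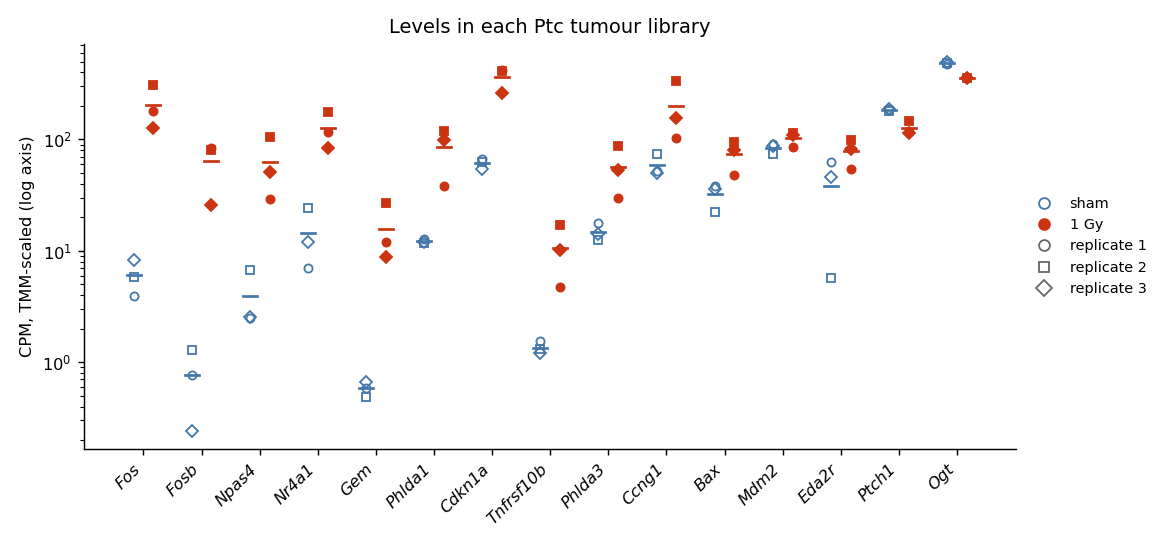
CPM (log axis) of 15 genes in each Ptc library; open blue symbols are sham, filled red symbols 1 Gy, shapes give the replicate number and bars the group mean. The 1 Gy libraries of Cdkn1a lie between 259 and 417 CPM above sham at 54.4 to 66.1, whereas Mdm2 and Eda2r overlap and Ptch1 and Ogt lie lower after 1 Gy.

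Immediate early genes held 5 of the 14 genes called by voom. Of 31 tested, 30 had a positive log2 fold change. With no overlap, 14 were higher and 0 lower, against 7.13% and 5.97% of all genes. The median log2 fold change was 1.68. It was 0.94 without 1 Gy replicate 2, 2.29 without sham replicate 2 and 1.47 without both. The 5 called by voom were Fos, Fosb, Npas4, Nr4a1 and Gem, and DESeq2 called 12, against 0.0746% and 1.12% of all genes called higher. Fos, a component of the AP-1 transcription factor (ENSMUSG00000021250, chr12:85473890-85477273, plus strand), stood at 180, 307 and 127 CPM after 1 Gy and at 3.94, 5.88 and 8.26 CPM in sham. Every irradiated library exceeded every sham library by more than an order of magnitude. The means were 204 ± 92.3 and 6.03 ± 2.16 CPM (SD, n = 3 each), and the log2 fold change was 5.08 ± 0.49 (33.9-fold, unadjusted p = 2.59e-05, the smallest of all genes by edgeR's quasi-likelihood test, and adjusted p = 0.0353 by voom).

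Fosb, another member of the Fos family (ENSMUSG00000003545, chr7:19302696-19310051, minus strand), was at 84.1, 80.6 and 25.8 CPM against 0.774, 1.29 and 0.243, with a log2 fold change of 6.36 ± 0.83 and 6.76 without both libraries numbered 2. The orphan nuclear receptor gene Nr4a1 (ENSMUSG00000023034, chr15:101254269-101274795, plus strand) was at 116, 178 and 83.6 CPM against 7.06, 24.2 and 12.1 (3.12 ± 0.54). Sham replicate 2 was the highest control for both genes and still lay below every irradiated library. Npas4, a neuronal transcription factor that is induced by calcium entry, was at 29.4, 106 and 51.1 CPM against 2.51, 6.79 and 2.56 (3.97 ± 0.67), and Gem, a small GTPase that inhibits calcium channels, at 12.1, 26.6 and 8.73 against 0.592, 0.488 and 0.670 (4.75 ± 0.58). Nr4a2 was at 77.1, 134 and 74.7 CPM against 34.9, 14.5 and 27.7 (1.89 ± 0.41), a smaller separation than in Nr4a1. Nr4a3 was at 147, 136 and 36.4 CPM against 1.28, 18.6 and 4.24 (3.73 ± 1.07).

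Members of the class differed among themselves. Atf3, a stress-induced transcription factor, was at 81.1 and 49.4 CPM in 1 Gy replicates 2 and 3 but at 5.63 in replicate 1, against 1.87 to 2.80 in sham. Zfp36, which destabilises inflammatory mRNA, was at 243 CPM in 1 Gy replicate 2 and at 9.98 and 42.4 in replicates 1 and 3, against 5.11 to 8.34 in sham. Egr4 was at 117 CPM in 1 Gy replicate 1 and at 2.44 and 2.80 in replicates 2 and 3, against 0.319 to 6.28 in sham, so those groups overlapped. Arc and Egr3, both induced by neuronal activity, overlapped with log2 fold changes of -0.28 and 0.05, as did Jun at 0.96. The 14 genes called by voom also held the endothelial gene Apold1, at 27.6, 138 and 44.3 CPM against 3.78, 5.22 and 3.31, and Dennd2c, a regulator of Rab GTPases, at 3.39, 4.2 and 2.62 CPM against 0.410, 0.318 and 0.426. The interleukin genes Il6 and Il1a are described with the inflammatory genes. The other 4 were Gm15920, a processed pseudogene whose counts may include reads of its parent gene, the NKG2D ligand gene H60b, the oxidised lipoprotein receptor gene Olr1, and Tac1, which encodes substance P. Each of these 4 was at or under 8.12 CPM in all libraries. H60b had 14, 9 and 16 counts after 1 Gy and 1, 3 and 1 in sham. Olr1 had 22, 14 and 37 counts after 1 Gy and 2, 0 and 1 in sham. Like Il6, both were near the floor of detection in every control, and no fold is given.

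**Figure D3:**
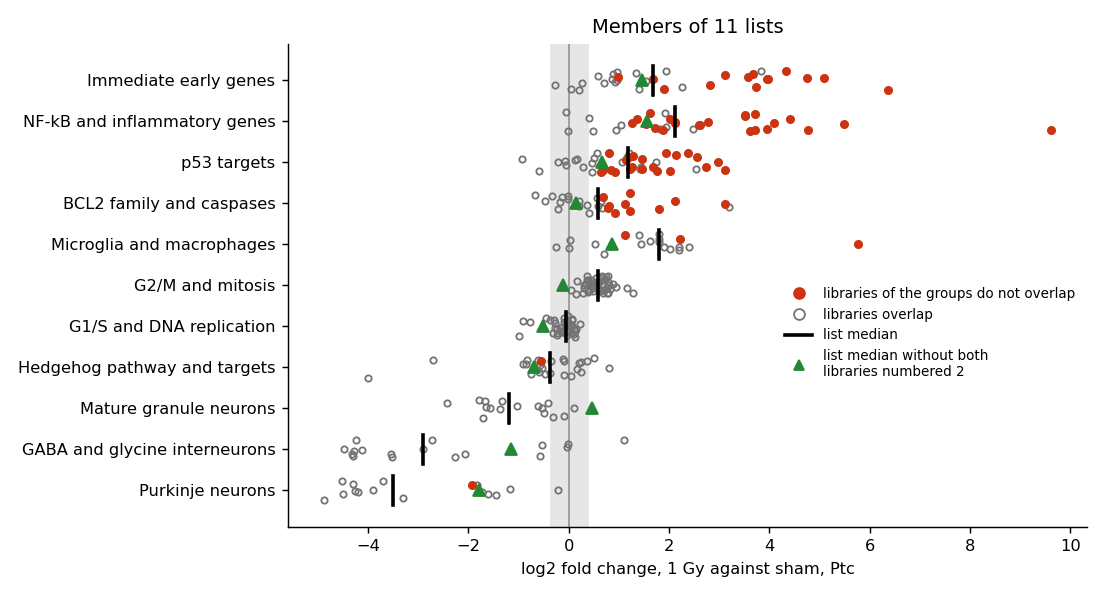
Log2 fold change of each tested member of 11 lists (1 Gy against sham in Ptc); filled red points are genes whose groups do not overlap, black bars list medians, green triangles list medians without both libraries numbered 2, and the grey band spans the middle quartiles of all genes. The median of the immediate early genes is 1.68, and 1.47 without both libraries numbered 2, while that of the G2/M genes goes from 0.58 to -0.12.

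Inflammatory genes formed the third group. Of 33 NF-kB and inflammatory genes tested, 31 had a positive log2 fold change. With no overlap, 23 were higher and 0 lower, against 7.13% and 5.97% of all genes. The median log2 fold change was 2.12, and 1.55 without both libraries numbered 2. Voom called 2 higher (Il6 and Il1a) and DESeq2 14, against 0.0746% and 1.12% of all genes. In 16 of the 23 the highest library was 1 Gy replicate 2, and in 20 the lowest irradiated library was 1 Gy replicate 1. Among all 1339 genes higher with no overlap, these counts were 820 and 714. The cytokine gene Il6 had 63, 592 and 179 counts in 1 Gy replicates 1, 2 and 3 (1.32, 17.4 and 4.73 CPM) and 0, 0 and 1 count in sham. It was thus near the floor of detection in every control, and no fold is given. Il1a, an alarmin cytokine, was at 5.63, 17.7 and 13.7 CPM against 1.37, 0.424 and 1.01 (log2 fold change 3.72 ± 0.68). The chemokine genes Ccl3 and Ccl4 were highest in 1 Gy replicate 3, at 11.6 and 11.8 CPM, with 2.59 and 3.5 CPM (Ccl3) and 2.49 and 1.09 CPM (Ccl4) in the other irradiated libraries and 0.706 CPM or less in sham.

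Regulators of the NF-kB system itself had lesser differences than Il1a. Relb, a subunit of the noncanonical branch, was at 8.93, 17.4 and 11.8 CPM against 3.03, 3.78 and 3.53 (log2 fold change 1.89 ± 0.39), with all sham libraries close together. The inhibitor gene Nfkbia was at 46.0, 144 and 91.4 CPM against 29.1, 41.5 and 38.3 (1.37 ± 0.42), and Tnfaip3, a deubiquitinase that dampens NF-kB signalling, at 9.81, 19.3 and 14.8 CPM against 5.58, 7.66 and 5.03 (1.26 ± 0.39). Rela and Nfkb1 overlapped, with log2 fold changes of 0.48 and 0.41. Vcam1, an adhesion molecule of activated endothelium, was at 32.8, 124 and 56.9 CPM against 24.8, 22.4 and 22.7.

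Markers of microglia and macrophages were high in 1 Gy replicates 2 and 3 as well. The 19 markers summed to 465, 3120 and 1708 CPM in 1 Gy replicates 1, 2 and 3, and to 560, 290 and 553 CPM in sham replicates 1, 2 and 3. The sums thus overlapped, with 1 Gy replicate 1 inside the sham range, and the part of microglial content in the inflammatory list was not tested. Of the 19, 3 were higher with no overlap (Cd14, Mrc1 and Adgre1), against 7.13% of all genes. The list median was 1.79, then 1.18 without 1 Gy replicate 2 and 0.85 without both libraries numbered 2. Cd14, a lipopolysaccharide coreceptor, was at 8.33, 158 and 87.5 CPM against 1.14, 1.87 and 1.66 (log2 fold change 5.76 ± 1.08), lowest of the irradiated libraries in 1 Gy replicate 1. The homeostatic microglial genes P2ry12, Tmem119 and Cx3cr1 had log2 fold changes of 0.01, -0.26 and 0.03. Neutrophil markers were scarce, with 4 of 12 passing the filter on low counts and a summed level of 1.2 CPM in 1 Gy replicate 1, about 17 in the other irradiated libraries and 2.2 to 3.6 in sham.

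Most hedgehog genes overlapped between the groups. Of 25 tested, 1 was lower with no overlap and 0 higher, shares under the 5.97% and 7.13% of all genes, 8 had a positive log2 fold change, and the median was -0.38. Without sham replicate 2 the median was -0.62. Without both libraries numbered 2 the median was -0.70 and 1 of the 25 was positive. Ptch1 (ENSMUSG00000021466, chr13:63508328-63573598, minus strand), itself a target of the pathway, was at 116, 148 and 115 CPM after 1 Gy and at 187, 179 and 188 CPM in sham. The sham libraries lay close together, and the irradiated ones all lay lower. The log2 fold change was -0.55 ± 0.20 (unadjusted p = 0.0326 by the quasi-likelihood test). Gli1, a transcription factor induced by the pathway, was at 69.5, 233 and 124 CPM against 290, 48.1 and 203. Sham replicate 2 was the lowest library, and the groups overlapped through it and because 1 Gy replicate 2 lay above sham replicate 3. Hhip, another target that binds the ligand, was at 10.9, 34.3 and 6.29 CPM against 38.5, 14.9 and 38.8, with log2 fold changes of -0.84 and, without both libraries numbered 2, -2.17. Smo, the signal transducer of the pathway, was at 112, 198 and 117 CPM against 197, 41.1 and 121, and its log2 fold change was 0.25 with all 6 libraries and -0.48 without both libraries numbered 2. Shh, the ligand, which Purkinje neurons make, was at 6.51 CPM in sham replicate 2 and at or under 1.4 CPM elsewhere.

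Few cell cycle and repair genes separated the groups. Over all genes tested, 7.13% were higher and 5.97% lower with no overlap. Of 48 genes of G2/M and mitosis, 48 had a positive log2 fold change with a median of 0.58, but 0 were without overlap. The median was 0.37 without 1 Gy replicate 2, 0.12 without sham replicate 2, and -0.12 without both, when 21 were positive. Mki67, the proliferation marker, was at 390, 584 and 548 CPM after 1 Gy and at 817, 67.8 and 494 CPM in sham. Top2a, the mitotic topoisomerase, was at 396, 524 and 530 CPM against 592, 49.5 and 424. Both were far lower in sham replicate 2 than in any other library, and both log2 fold changes reversed without it, from 0.14 to -0.38 and from 0.45 to -0.08. Of 40 genes of G1/S and DNA replication 12 were positive, with a median of -0.04 and 0 without overlap. Without sham replicate 2 there were 0 of 40 positive and the median was -0.53. Mcm5, a subunit of the replicative helicase, was at 126, 143 and 124 CPM against 221, 35 and 147. Of 47 genes of DNA damage signalling and repair, 1 was higher with no overlap (the histone variant gene H2afx) and 2 were lower (Xrcc2 and Trp53bp1), with a median of -0.07 that was -0.29 without sham replicate 2. These shares were under those of all genes. Xrcc2, which acts in homologous recombination, was at 13.7, 11.5 and 13.1 CPM against 19.6, 15 and 22.

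**Figure D4:**
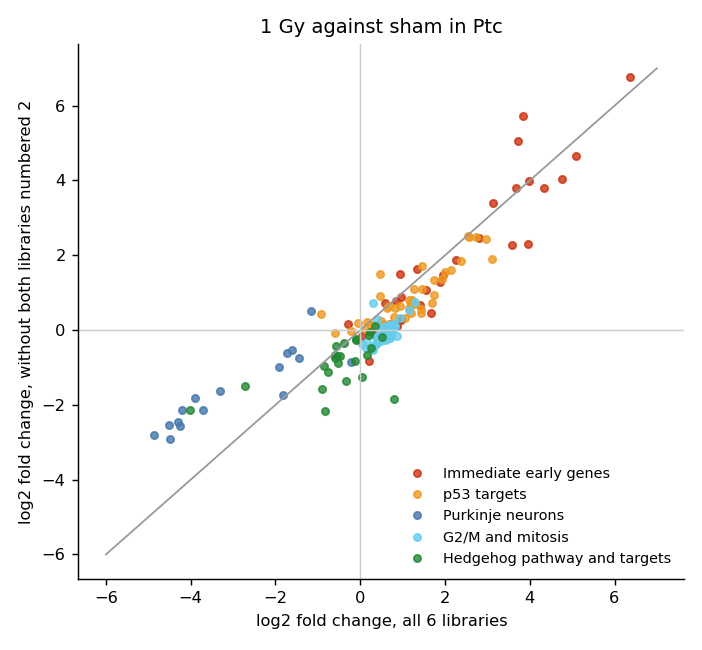
Log2 fold change (1 Gy against sham in Ptc) with all 6 libraries, horizontal axis, and without both libraries numbered 2, vertical axis, for tested members of 5 lists; the diagonal marks equal values. Immediate early genes have medians of 1.68 and 1.47, or 0.94 without 1 Gy replicate 2 alone and 2.29 without sham replicate 2 alone, while G2/M genes lie above 0 with all libraries and around 0 without those numbered 2 (medians 0.58 and -0.12), and hedgehog genes lie lower (-0.38 and -0.70).

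The Purkinje and interneuron lists had the most negative medians of the 34 lists. Of 16 Purkinje neuron genes 16 had a negative log2 fold change, with a median of -3.50. Icmt was the 1 gene lower with no overlap, a share near the 5.97% of all genes. Calb1, a calcium buffer, was at 29.1, 13.6 and 38.3 CPM after 1 Gy and at 15.9, 968 and 226 CPM in sham, so sham replicate 1 lay within the irradiated range. The interneuron gene Gad2, which makes GABA, was at 0.921, 2.18 and 6.88 CPM against 3.87, 161 and 28.1, and the interneuron list had a median of -2.91. Without sham replicate 2 the medians were -1.93 and -1.32, and without both libraries numbered 2 -1.78 and -1.16. For the mature granule neuron genes the median went from -1.19 to 0.06 and 0.47. Among the 99 genes that DESeq2 called lower, sham replicate 2 was the highest library in 82, and 56 had no overlap between the groups. Among the 211 called higher, 1 Gy replicate 2 was the highest in 150, and 203 had no overlap.

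The other marker lists held at most 1 separated gene each, against 7.13% higher and 5.97% lower over all genes, and nothing is read from these counts. With no overlap there was 1 higher gene of 15 endothelial (Cldn5), 1 of 11 pericyte and smooth muscle (Rgs5) and 1 of 9 choroid plexus and ependyma genes (Aqp1), and 1 lower of 13 neural stem cell genes (Hes5). There were 0 in either direction among 23 granule neuron progenitor, 16 mature granule neuron, 17 interneuron, 16 astrocyte, 15 oligodendrocyte, 11 oligodendrocyte precursor, 11 fibroblast and meningeal, 7 erythrocyte, 4 neutrophil, 4 lymphocyte and 2 sex-linked genes tested. The median log2 fold changes of the endothelial and pericyte lists were 1.68 and 1.5, then 0.25 and -0.32 without 1 Gy replicate 2 and 0.74 and 0.20 without both libraries numbered 2. That of the granule neuron progenitor list was -0.17, and 0.08 without 1 Gy replicate 2. The erythrocyte median went from -1.68 to 1.44 without sham replicate 2 and the oligodendrocyte median from -1.48 to 0.10.

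Matrix and signalling genes held further separated members. Their counts are set against 7.13% higher and 5.97% lower with no overlap over all genes. Of 34 genes of adhesion, matrix and migration, 7 were higher with no overlap and 0 lower. In all 7, 1 Gy replicate 2 was the highest library, as it was in 820 of the 1339 genes higher with no overlap over all genes. The median log2 fold change of 0.82 was 0.01 without 1 Gy replicate 2 and 0.05 without both libraries numbered 2. Spp1, which encodes the secreted phosphoprotein osteopontin, was at 35.5, 156 and 136 CPM after 1 Gy and at 14.8, 11.8 and 22.9 in sham (2.72 ± 0.59, DESeq2 adjusted p = 0.00409). Plaur, the urokinase receptor gene, was at 2.22, 17.8 and 9.36 CPM against 1.02, 0.637 and 0.994. In both, 1 Gy replicate 1 was well below the other irradiated libraries. In the BMP and TGF-beta list 6 of 32 genes were higher with no overlap and 1, Id4, was lower, with a median of 0.08 that was -0.14 without 1 Gy replicate 2. Of 15 genes of the unfolded protein response 3 were higher with no overlap (Atf3, Sesn2 and Ppp1r15a), with a median of 0.10 that was -0.13 without 1 Gy replicate 2. Of 20 hypoxia genes 2 were higher (Ldha and Pfkfb3) and 1 lower (Ero1l), of 30 interferon genes 1 higher (Oasl1), of 20 sterol synthesis genes 1 higher (Hmgcs1), and of 16 heat shock protein genes and 14 genes of the MYC family and cyclins D 0 in either direction. The shares of the last 5 lists were close to or under the background of 7.13% higher and 5.97% lower.

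A few lower genes had tight levels in both groups; they were chosen after their values were seen. Ogt, the enzyme that adds N-acetylglucosamine to proteins, was at 354, 359 and 355 CPM after 1 Gy and at 478, 483 and 492 in sham (log2 fold change -0.44 ± 0.23, DESeq2 adjusted p = 0.00513). Zfp758, which encodes a zinc finger protein, was at 7.57, 7.85 and 8.07 CPM against 12.6, 12.8 and 12.6 (-0.69 ± 0.28). Maml2, a coactivator of Notch, was at 23.8, 24.1 and 22.2 CPM against 33.8, 39.7 and 36.5 (-0.65 ± 0.21). The groups were apart in all 3 genes, and sham replicate 2 lay with the other controls. Kmt2a, a histone H3 lysine methyltransferase, was also lower but less tight, at 209, 156 and 211 CPM against 386, 420 and 304 (-0.95 ± 0.26). Slc15a2, a peptide transporter, spread widely within both groups, at 0.753, 7.14 and 1.43 CPM against 96.9, 20 and 34.3. Tubb2a, a beta-tubulin, was higher at 286, 246 and 204 CPM against 121, 128 and 120.

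The change after 1 Gy was then compared with that in SmoA1 tumours and in BL6 cerebellum by interaction terms on unstranded counts. The SmoA1 and BL6 libraries were of another kind, with 540652 to 842997 counts each and 49.1% to 49.6% on the reverse strand, and Actb lay between 24.9 and 58.8 CPM there, against 714 to 2547 CPM in Ptc. Unmapped reads made up 45.8% to 76.1% there. Mitochondrial genes held 0.00237% to 0.00856% of their reverse-strand counts, against 1.35% to 2.90% in Ptc. Model and kind of library therefore cannot be told apart. Whether counts in the flatter libraries follow RNA levels as in Ptc, or whether their fold changes are compressed, was not tested. Against SmoA1, 1 of 27377 genes differed (0.00365%). It was Cdkn1a, whose change was greater in Ptc by 3.16 ± 0.36 on the log2 scale (edgeR quasi-likelihood adjusted p = 0.0275), with a log2 fold change of -0.40 ± 0.21 in SmoA1. There Cdkn1a was at 45.3, 51.1 and 38.6 CPM after 1 Gy and at 54.3, 53.9 and 71.2 in sham. The median over all genes of this difference was 0.19 with TMM factors and 0.03 with RLE factors, under which Cdkn1a was no longer called, at 2.99. The call of Cdkn1a was lost without Ptc sham replicate 2, without Ptc sham replicate 3 and without any 1 of the 6 SmoA1 libraries, with differences between 2.91 and 3.27. Without Ptc sham replicate 1 the count of differing genes was 91, without 1 Gy replicate 1 it was 4 and without 1 Gy replicate 2 it was 2, from fewer genes tested.

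Against BL6, 2 of 26305 genes differed (0.0076%). The change of Fos was greater in Ptc by 5.86 ± 0.52 (adjusted p = 0.00197) and that of Fosb by 6.71 ± 0.84 (adjusted p = 0.0412, both by edgeR's quasi-likelihood test). In BL6, Fos was at 27.6, 21.9 and 27.1 CPM after 1 Gy and at 47.7, 37.7 and 43.5 in sham, and its log2 fold change was -0.73 ± 0.27. Xist separated the BL6 groups, at 87.2 to 169 CPM after 1 Gy and 212 to 253 in sham, and what this reflects was not tested. Gem, Npas4 and Nr4a1 had differences of 4.61, 4.24 and 3.55 that were not called. Fos was called with each of the 12 libraries left out in turn, whereas Fosb was not called without Ptc 1 Gy replicate 2, without Ptc sham replicate 3 or without any 1 of the BL6 libraries. Without Ptc 1 Gy replicate 1 the count was 26, without Ptc sham replicate 1 it was 63, and without 1 Gy replicate 3 or sham replicate 2 it was 4. Between SmoA1 and Ptc, the changes of Fos and Fosb differed by 4.24 ± 0.58 and 4.98 ± 0.83, not called, with log2 fold changes of 1.02 ± 0.30 and 1.54 ± 0.28 in SmoA1. Eda2r had a log2 fold change of 1.66 ± 0.22 in BL6 and 1.05 ± 0.77 in Ptc.

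**Figure D5:**
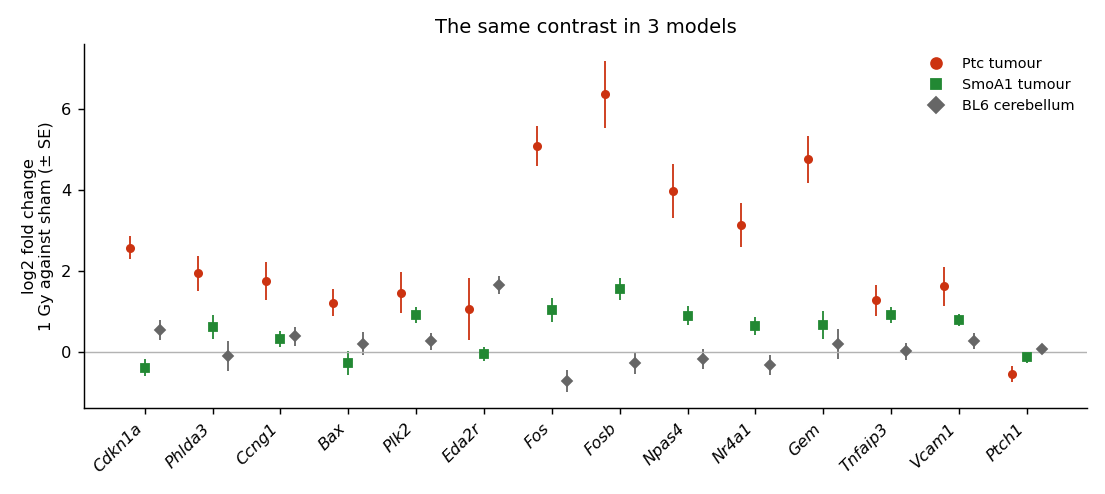
Log2 fold change after 1 Gy (± SE) of 14 genes in Ptc tumour (circles), SmoA1 tumour (squares) and BL6 cerebellum (diamonds), each from its own fit of 3 libraries a group. The Ptc fit used reverse-strand counts and the SmoA1 and BL6 fits unstranded counts. The gaps shown therefore need not equal the interaction differences, which came from unstranded counts throughout. Cdkn1a lies at 2.57 in Ptc, -0.40 in SmoA1 and 0.54 in BL6, and Fos at 5.08, 1.02 and -0.73.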

How the data were processed

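Gene counts were analysed for 6 Ptc libraries, with 6 SmoA1 and 6 BL6 libraries for the interaction tests. The deposited files hold raw counts per gene without regard to strand and for either strand alone. Total RNA was extracted with RNeasy and depleted of ribosomal RNA, per the labels' protocols. Per the submitters' processing notes, the build was mm10 and Cell Ranger 5.0.1 was used, although that single-cell program writes another layout. For the aligner, nothing was stated in the labels or headers. GENCODE M21 on GRCm38 matched 53274 of 53379 gene identifiers. The rows for unmapped, multimapping, unassigned and ambiguous reads were left out; 2.53% to 6.16% of Ptc reads were unmapped.

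Reverse-strand counts were used for Ptc. The 4 files of each numbered SmoA1 or BL6 sample were summed. Genes were filtered with filterByExpr, scaled with TMM and tested with the edgeR 4.0.16 quasi-likelihood test under R 4.3.3, calling a Benjamini-Hochberg adjusted p under 0.05. Alternatives used DESeq2 1.42.0, limma 3.58.1 (voom with sample quality weights), RLE factors, other filters, unstranded counts, the sample number as a block, a granule neuron covariate, and libraries left out. Robust edgeR estimation was added after the data were seen. Each test was tried on simulated data in which 200 genes had known changes.

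The comparison, the 34 lists and the fixed genes were chosen with earlier results of these data known. The rule for named genes took 24 fixed genes, the largest called increases and decreases, up to 4 called members of each list per direction or else the 2 with the smallest p, and called interaction genes. Not every gene of the rankings is described. Other genes named were chosen after their values were seen, from the lists or from the voom and DESeq2 calls. RefSeq promoters gave an entry for 27025 genes. Figures were drawn with matplotlib 3.10.9.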

Additional observations from a re-analysis of the deposited data

Results flagged for a closer look

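Each of the following was flagged because the interaction term found that the change after 1 Gy differed between models. The change of Cdkn1a was greater in Ptc tumours than in SmoA1 tumours by 3.16 ± 0.36 on the log2 scale (edgeR adjusted p = 0.0275), with all 3 irradiated Ptc libraries above all 3 sham libraries. The change of Fos was greater in Ptc tumours than in BL6 cerebellum by 5.86 ± 0.52 (edgeR adjusted p = 0.00197), and that of Fosb by 6.71 ± 0.84 (edgeR adjusted p = 0.0412). Of 18 other settings for each difference, the call was lost in 11 for Cdkn1a, in 11 for Fosb and in 1 for Fos. Model and kind of library cannot be told apart in these comparisons.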

How the results depend on the processing

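The count of genes called in Ptc was 0 with RLE factors, a mean of at least 1 CPM, unstranded counts, the granule neuron covariate, both libraries numbered 2 left out, robust estimation, and each of the 6 libraries left out in turn (0 to 0). It was 310 by DESeq2, 14 by voom with sample quality weights and 1 (Fos) without the low-count filter. For Ptc against SmoA1 the count was 0 with RLE factors, 112 by DESeq2, 0 with the larger strand column and 0 to 91 with 1 library left out. For Ptc against BL6 it was 50 by DESeq2, 1 with the larger strand column, 1 from separate fits and 1 to 63 with 1 library left out. Leaving out a Ptc library also lowered the number of genes tested. No label states that equal sample numbers mark paired samples, and weak correlations among 3 libraries a group cannot settle it. After centring within groups, same-numbered Ptc libraries correlated at 0.00496, 0.0910 and 0.158, and differently numbered ones at -0.197 to 0.155. With the number as a replicate block the counts were 0 in Ptc, 0 against SmoA1 and 0 against BL6. Named genes whose log2 fold change reversed, with the range over libraries left out, were Smo (-0.17 to 0.81, -0.015 by voom and -0.48 without both numbered 2), Gli1 (-0.90 to 0.17, positive without sham replicate 1), Mki67 (-0.38 to 0.85, and -0.49 without both numbered 2), Top2a (-0.077 to 1.03, and -0.14 without both numbered 2), Mcm5 (-0.50 to 0.52, and 0.28 with the replicate block), Atoh1 (-2.35 to 0.97, and 0.54 by voom) and Neurod1 (-0.93 to 0.37, and 0.25 without both numbered 2). Causes were not tested beyond the libraries left out.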
